A study of Xenopus laevis with 3 samples.

Results

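The genes described here encode the proteins that cut introns out of pre-mRNA and the RNA-binding proteins that steer this cutting. They were chosen by symbol alone: after removal of a final .L or .S, the row names beginning with snrp, sf3a, sf3b, u2af, hnrnp, rbfox or ptbp, or with srsf, prpf, lsm or celf followed by a digit, were kept. This gave 146 of 34694 gene rows, which stand for 85 genes. Xenopus laevis, the African clawed frog, is allotetraploid, so a gene can have a copy on an L and another on an S chromosome, called homeologs. Both copies had a row for 61 of the 85 genes (71.8%), against 7764 of 14439 symbols with such an ending in the whole table (53.8%). Of the 24 genes with a single row, 13 had a row ending in .L and 11 a row ending in .S. For lsm12.L the ending and the RefSeq gene table disagree, since the table places it on an S chromosome.

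Poly-A RNA came from whole testis of males of laboratory strains, labelled as outcrossed and untreated. There were 3 libraries, which differ in processing date and form a single group, here replicates 1, 2 and 3. Age is not given in the sources used here, nor whether each library was a separate animal, so the spread between libraries may in part be technical. The design allows comparisons between genes, and between the copies of a gene, within the same libraries. Library totals ran from 61212304 to 70580016 counts, and the median row of this set had a mean of 2970 counts. The fixed markers of early germ cells, meiosis, spermatids, Sertoli cells, Leydig cells and smooth muscle were detected in 5 of 5, 6 of 6, 7 of 7, 8 of 8, 5 of 5 and 8 of 8 rows. The summed level of the smooth muscle list was 109, 447 and 1237 TPM (abundance scaled to listed gene length and library size) in replicates 1, 2 and 3, and that of the Leydig list 474, 795 and 1453 TPM. Leukocyte markers summed to 79.9, 58.4 and 231 TPM, of which mpo.S held 2.14, 1.49 and 131 TPM, and erythrocyte markers to 134, 113 and 60.9 TPM. The part of these differences in the values below was not tested. In whole tissue, fewer cells of a type cannot be told apart from less RNA per cell.

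The spliceosome is assembled on each intron from small nuclear ribonucleoproteins. Sm proteins form a ring on the small nuclear RNAs of the U1, U2, U4 and U5 particles, and Lsm proteins form a related ring on U6. The SF3A and SF3B complexes and the U2AF dimer recognise the branch point and the 3′ splice site, and PRPF proteins belong largely to the later tri-snRNP and catalytic complexes. SR proteins bind exons and mostly favour the use of nearby splice sites, while hnRNP proteins coat nascent RNA and often repress them. The PTBP, RBFOX and CELF families set splicing patterns that differ between tissues. In mammals the testis is among the tissues with the most alternative splicing.

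Nearly all of these rows were detected in the testis, with a median level above that of all detected rows. A row was counted as detected when every library held over 3 counts and a CPM (counts scaled to library size, here with TMM factors) of 0.5 or more. By this measure 141 of 146 rows (96.6%) were detected, against 66.7% of all rows and 81.6% of rows that carry a gene name. The median of the mean levels was 46.1 TPM over the 146 rows, and 47.1 TPM over the 141 detected ones, against 9.72 TPM over all 23153 detected rows. A mean of at least 10 TPM was reached by 132 rows (90.4%, against 49.2% of all detected rows) and one of at least 100 TPM by 32 (21.9%, against 7.32%). Together the 146 rows held 10920, 9919 and 9769 TPM in replicates 1, 2 and 3, which is 1.09%, 0.992% and 0.977% of the deposited total. These shares describe a set of broadly expressed genes and were not tested.

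**Figure D1:**
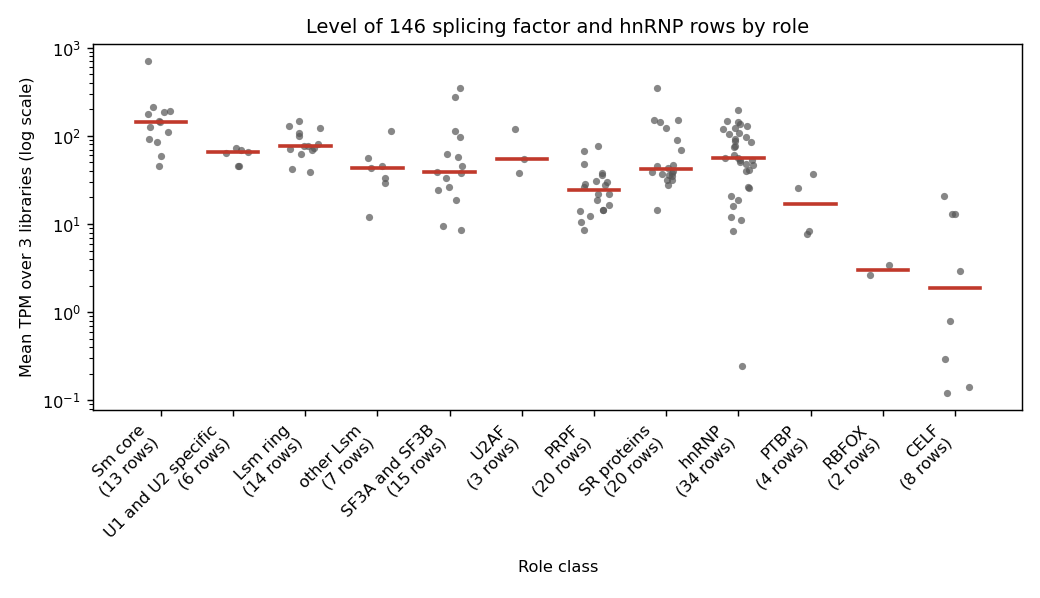
Mean TPM over the 3 libraries, on a log scale, of each of the 146 rows, grouped by role, with red lines at the class medians. Sm core rows have the highest class median, 145 TPM, and the CELF rows the lowest, 1.87 TPM, with 4 CELF rows and 1 hnRNP row below 1 TPM.

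The Sm core, the ring of proteins around the small nuclear RNAs, was the class with the highest median TPM. Its 13 rows, from 7 genes, ran from 45.6 TPM for snrpe.L to 714 ± 137 TPM for snrpg.S (SD, n = 3), which was the highest of all 146 rows. The level of snrpg.S was 742, 835 and 565 TPM in replicates 1, 2 and 3, so its lowest library still exceeded every other row of the set in every library. The next Sm rows were snrpf.L at 215 ± 40.6, snrpe.S at 194 ± 38.1 and snrpd1.S at 187 ± 21.1 TPM (SD, n = 3 each). Summed over both copies, the 7 genes ran from snrpd3 at 144 ± 26.3 and snrpd2 at 146 ± 31.3 TPM, through snrpb at 238 ± 66.2, snrpe at 239.5 ± 48.0, snrpf at 339 ± 76.4 and snrpd1 at 363 ± 34.9, to snrpg at 825 ± 161 TPM. The neighbours snrpd3 and snrpd2, snrpb and snrpe, and snrpf and snrpd1 overlapped between libraries, whereas snrpg exceeded the other 6 in each library.

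Short genes had higher TPM, and this bears on every comparison of levels between genes here. Over the 146 rows, Spearman's rho of listed length with mean TPM was -0.628, while with mean CPM, which is not divided by length, it was 0.145. The corresponding rho with TPM was -0.346 over all detected rows. The 28 rows under 500 bases had a median of 103 TPM and 28.8 CPM, and the other 118 rows had 38.7 TPM and 46.3 CPM. Listed lengths were 231 bases for snrpg.S and 219 to 711 bases over the Sm core, and most appear to be coding lengths without untranslated regions. How much of the TPM of the shortest genes comes from reads that reach beyond the listed length was not tested. In CPM, snrpg at 179 ± 37.8 and snrpb at 158 ± 42.9 were the highest Sm genes, and they overlapped between libraries. The Sm core did not keep its first place by CPM, where its row median was below that of the hnRNP rows.

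The genes of proteins that belong to single particles ran from 45.5 TPM for snrpa.S to 131 TPM for the sum of snrpa1. For U1, snrpa.S stood at 45.5 ± 4.57 TPM and snrpc.S at 70.0 ± 4.43 TPM (SD, n = 3). For U2, snrpa1 and snrpb2, whose products bind the U2 RNA together, summed to 131 ± 17.2 and 118 ± 10.4 TPM over their copies.

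The Lsm ring genes lsm1 to lsm8 were detected in 14 of 14 rows, between 39.0 TPM for lsm2.S and 146 ± 24.6 TPM for lsm1.S. Of these, lsm2 to lsm8 make the nuclear ring on U6, while lsm1 takes the place of lsm8 in a cytoplasmic ring that acts in mRNA decay. Summed over copies, lsm1 had 326, 279 and 223 TPM in replicates 1, 2 and 3, and lsm8 had 163, 195 and 93.7 TPM. The gene lsm1 was thus above lsm8 in each library. The other members of the nuclear ring had 199 ± 3.70 TPM for lsm4, 179 ± 20.9 for lsm6, 114 ± 29.6 for lsm3, 101 ± 8.20 for lsm2, 98.6 ± 21.8 for lsm5 and 76.2 ± 14.3 for lsm7 (SD, n = 3).

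Other Lsm genes have roles outside this ring. Of these rows, lsm12.L had the highest level, 114 ± 30.1 TPM, with 123, 138 and 80.3 TPM in replicates 1, 2 and 3. The genes lsm14a and lsm14b, whose products repress translation and gather in P-bodies, summed to 62.5 ± 12.2 and 101 ± 10.9 TPM. The genes of the U7 particle, which processes histone mRNA, had the lowest sums of this class, with lsm10.L at 42.8 ± 5.52 and lsm11.S at 12.1 ± 2.50 TPM (SD, n = 3).

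**Figure D2:**
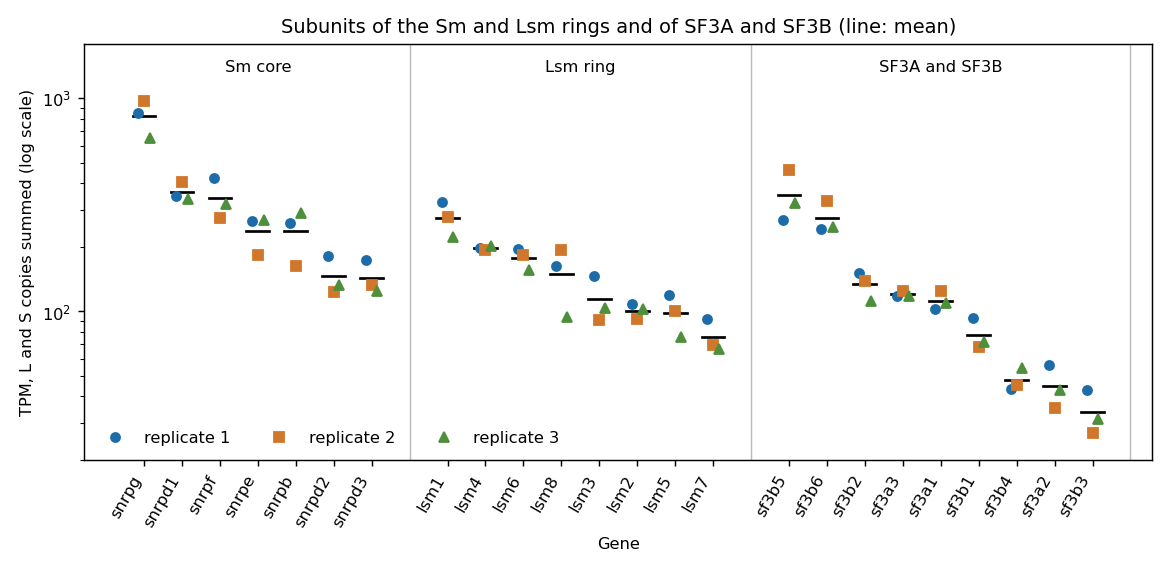
TPM summed over the L and S copies, on a log scale, for the genes of the Sm core, the Lsm ring and the sf3a and sf3b group, with 1 symbol per library and a line at the mean. The gene snrpg lies above the other Sm genes in each library, and sf3b5 and sf3b6 lie above the other sf3a and sf3b genes.

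Among the sf3a and sf3b genes, whose products bind the branch point with U2, sf3b5 and sf3b6 had the highest TPM. The level of sf3b5.S was 270, 460 and 324 TPM and that of sf3b6.S, whose product contacts the branch point adenosine, was 243, 329 and 249.7 TPM in replicates 1, 2 and 3. Both rows were above every other sf3a and sf3b gene in all 3 libraries. The largest subunit, sf3b1, summed to 77.9 ± 13.8 TPM, sf3b2 to 135 ± 20.1, sf3a3 to 120.3 ± 3.58, sf3a1.L to 112 ± 11.5, sf3b4 to 47.6 ± 5.68, sf3a2 to 44.8 ± 10.6 and sf3b3 to 33.7 ± 8.08 TPM (SD, n = 3). In CPM this order did not hold, since sf3b5.S with a listed length of 261 bases stood at 87.7 ± 29.2 CPM and sf3b1, at 3921 and 3924 bases, summed to 287 ± 29.4 CPM. The U2AF genes had 121 ± 21.0 TPM for u2af2.S, which binds the polypyrimidine tract, and 92.2 ± 9.47 TPM for the sum of u2af1, which reads the AG at the intron end.

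PRPF genes, detected in 20 of 20 rows, had a row median of 24.3 TPM. The highest row by mean TPM was prpf3.S, of the U4/U6 particle, at 57.6, 117 and 55.1 TPM in replicates 1, 2 and 3. Next was prpf18.L, which acts in the second catalytic step, at 67.3 ± 17.0 TPM. With 86.0, 52.7 and 63.25 TPM, prpf18.L was above prpf3.S in replicates 1 and 3. The value of prpf3.S in replicate 2 stood above both others. The level of prpf8.S, which encodes the protein at the catalytic centre, was 37.9 ± 8.17 TPM. With its listed length of 7008 bases, prpf8.S was also among the rows with the most counts, at 249.7 ± 39.7 CPM. The lowest rows were prpf6.S at 8.56 ± 0.896 and prpf40b.S at 10.6 ± 7.82 TPM (SD, n = 3).

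SR protein genes were detected in 20 of 20 rows and were led by srsf5. Its S copy had 373, 310 and 370 TPM and its L copy 150, 118 and 164 TPM in replicates 1, 2 and 3, a sum of 494 ± 58.3 TPM. All 3 libraries placed this sum above the other SR genes, of which srsf2 had 214 ± 5.41, srsf7 188 ± 10.6, srsf3.S 150 ± 28.0 and srsf9 105 ± 2.23 TPM (SD, n = 3). The founding member srsf1 had 72.3 ± 6.31 TPM, srsf6 74.9 ± 9.05, srsf11 63.8 ± 5.22, srsf10 52.9 ± 5.20 and srsf12.L, a relative of srsf10, 46.1 ± 2.91 TPM. The lowest rows of the class were srsf10.L at 14.5 ± 1.61 and srsf11.S at 27.8 ± 0.264 TPM. A further gene, srsf5a, summed to 85.5 ± 9.53 TPM, but the RefSeq gene table gives keratin names as synonyms of srsf5a.L, so the identity of that row is uncertain.

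hnRNP genes were detected in 33 of 34 rows, with a row median of 56.0 TPM. The most abundant was hnrnpab, known in Xenopus oocytes for binding localised Vg1 mRNA, which summed to 317 ± 10.8 TPM over its copies. It was followed by hnrnpc, an early packager of nascent transcripts, at 263 ± 11.3, hnrnpdl at 252 ± 29.9, hnrnpa2b1 at 232 ± 36.3 and hnrnpk at 205 ± 23.7 TPM (SD, n = 3). By row, the highest were hnrnpab.S at 195 ± 4.58, hnrnpdl.L at 147 ± 17.2, hnrnpc.S at 143 ± 7.17 and hnrnpa2b1.L at 135 ± 18.4 TPM. Near the low end were hnrnpr at 32.9 ± 5.34, hnrnpul1 at 25.9 ± 2.07 and hnrnpll, a regulator of splicing in lymphocytes, at 19.5 ± 3.62 TPM, while the lowest detected row was hnrnpll.S at 8.26 ± 1.99 TPM. The paralog hnrnpl summed to 140, 115 and 136 TPM in replicates 1, 2 and 3, against 23.6, 17.1 and 17.6 TPM for hnrnpll. The log2 ratio of hnrnpll to hnrnpl was -2.75 ± 0.19 (SD, n = 3), that is 6.74-fold lower, in 3 of 3 libraries.

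Summed over copies, tissue-type regulators ran from 0.141 TPM for celf4, which was not detected, to 62.8 TPM for ptbp1. This was a wider fold range than that of the summed hnRNP genes, though not by single rows. The width rests in large part on undetected genes, since the lowest gene with a detected row was celf5 at 2.95 TPM. The gene ptbp1, a widely expressed repressor of exons, had 53.8, 66.5 and 68.2 TPM over its copies in replicates 1, 2 and 3, and ptbp3 had 20.7, 12.5 and 14.8 TPM. The groups of values did not overlap, and the log2 ratio of ptbp3 to ptbp1 was -2.00 ± 0.55 (SD, n = 3). The gene rbfox2, whose product binds UGCAUG near exons, had 2.14, 2.79 and 2.99 TPM for its L and 3.03, 3.45 and 3.82 TPM for its S copy. No row named ptbp2, rbfox1 or rbfox3 was analysed here.

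The CELF family held 4 of the 5 rows that were not detected. The gene celf1, known in Xenopus embryos as EDEN-BP for its part in shortening poly-A tails, was the most abundant, with 21.8, 17.2 and 23.6 TPM for celf1.L and 14.1, 10.6 and 14.3 TPM for celf1.S. In celf3, a gene best known from the nervous system, celf3.S had 9.96, 7.51 and 21.1 TPM in replicates 1, 2 and 3, highest in replicate 3. Its L copy was not detected, with 9, 11 and 11 counts. The related celf5.S was detected at 2.48, 2.57 and 3.79 TPM, while celf4.L, with 16, 18 and 11 counts, was not. The copies of celf2 had 107, 132 and 27 counts for celf2.L and 56, 33 and 10 counts for celf2.S, so both missed the detection limit in replicate 3 and passed it in the other 2 libraries. The log2 ratio of celf1 to celf2 was 4.64, 4.24 and 6.68 in replicates 1, 2 and 3, a mean of 5.19 ± 1.31 (SD, n = 3), and 4.44 without replicate 3. Beside these, the neuron markers were detected in 3 of 6 rows and summed to 30.3, 18.0 and 17.0 TPM in replicates 1, 2 and 3. Most of this came from the detected snap25.S, at 18.0, 12.7 and 11.3 TPM. Of the undetected rows, syt1.L had 54, 12 and 13 counts and stmn2.L 6, 23 and 15 counts. The part of neurons in the celf levels was not tested.

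The 3 paralog ratios computed were those of ptbp3 to ptbp1, celf1 to celf2 and hnrnpll to hnrnpl. Each had p = 0.25 in an exact permutation of signs (two-sided), also after Benjamini-Hochberg adjustment, which is the smallest value that 3 libraries allow.

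**Figure D3:**
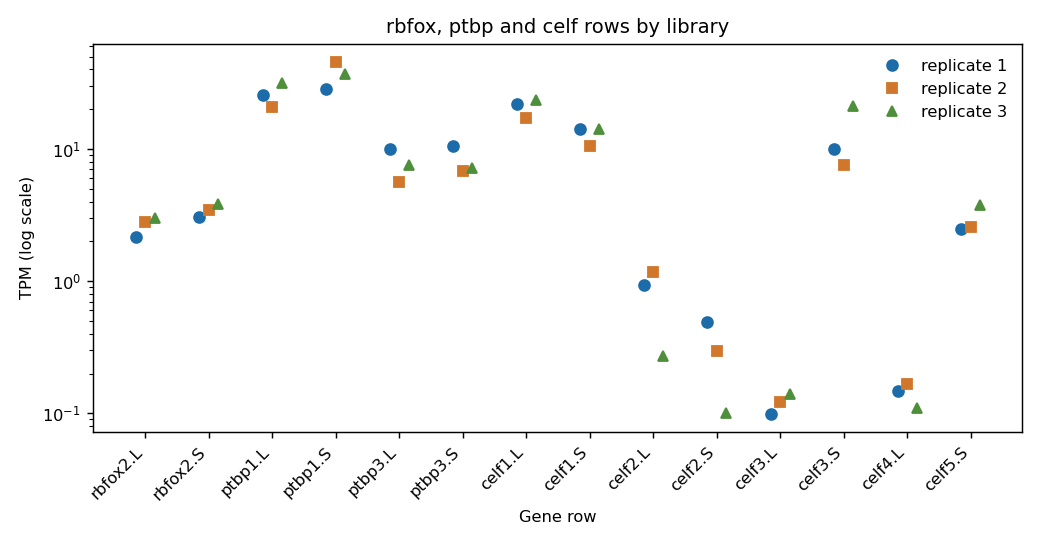
TPM on a log scale of each rbfox, ptbp and celf row, with 1 symbol per library. The ptbp1 and celf1 copies lie above 10 TPM in all 3 libraries, celf3.S lies far above celf3.L, and both celf2 copies are lowest in replicate 3.

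Rows at the detection limit were few. Besides the 4 CELF rows, hnrnpul1.L was not detected, with 23, 67 and 21 counts or 0.305, 1.02 and 0.351 CPM. Just below the limit was celf2.L, whose lowest library had 0.451 CPM, and the first rows above it were rbfox2.L with 2.81 and celf5.S with 3.14 CPM in their lowest libraries.

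The copies of many of these genes were not equally abundant, though most differed by less than 2-fold. Of the 61 pairs, 60 passed the filter on counts. The quasi-likelihood test of edgeR, adjusted by Benjamini-Hochberg over all 6627 tested pairs, called 41 of them, which is 68.3% against 61.1% of all pairs. S was higher in 23 of the 60 pairs (38.3%, against 26.6% of all pairs) and L in 18 (30.0%, against 34.4%). The median absolute log2 ratio was 0.58, or 1.49-fold, against 0.92, or 1.89-fold, over all pairs. A difference over 4-fold was found in 6 pairs (10%, against 21.5%), and 47 pairs (78.3%) were under 2-fold, against 53.3% of all pairs. These shares are descriptions of a list, and their difference from the background was not tested. The log2 ratio of a pair also varied less between libraries in this set, with a median SD of 0.18 against 0.34 over all pairs. The part of this in the smaller ratios was not tested. With 2 libraries the calls dropped to 9 with L and 15 with S higher without replicate 1. They were 12 and 17 without replicate 2, and 8 and 16 without replicate 3. Over all pairs the calls fell from 2283 with L and 1766 with S higher. In the same order of fits, they were 2017 and 1552, 1870 and 1399, and 1848 and 1351. The set thus lost a larger part of its calls than all pairs did, whichever library was left out. Of the 41 called pairs, 19 were called in each of these 3 fits, and no called pair changed direction in any alternative tried. How reads that match both copies were counted is not known here, which leaves the ratio uncertain where copies are near-identical.

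**Figure D4:**
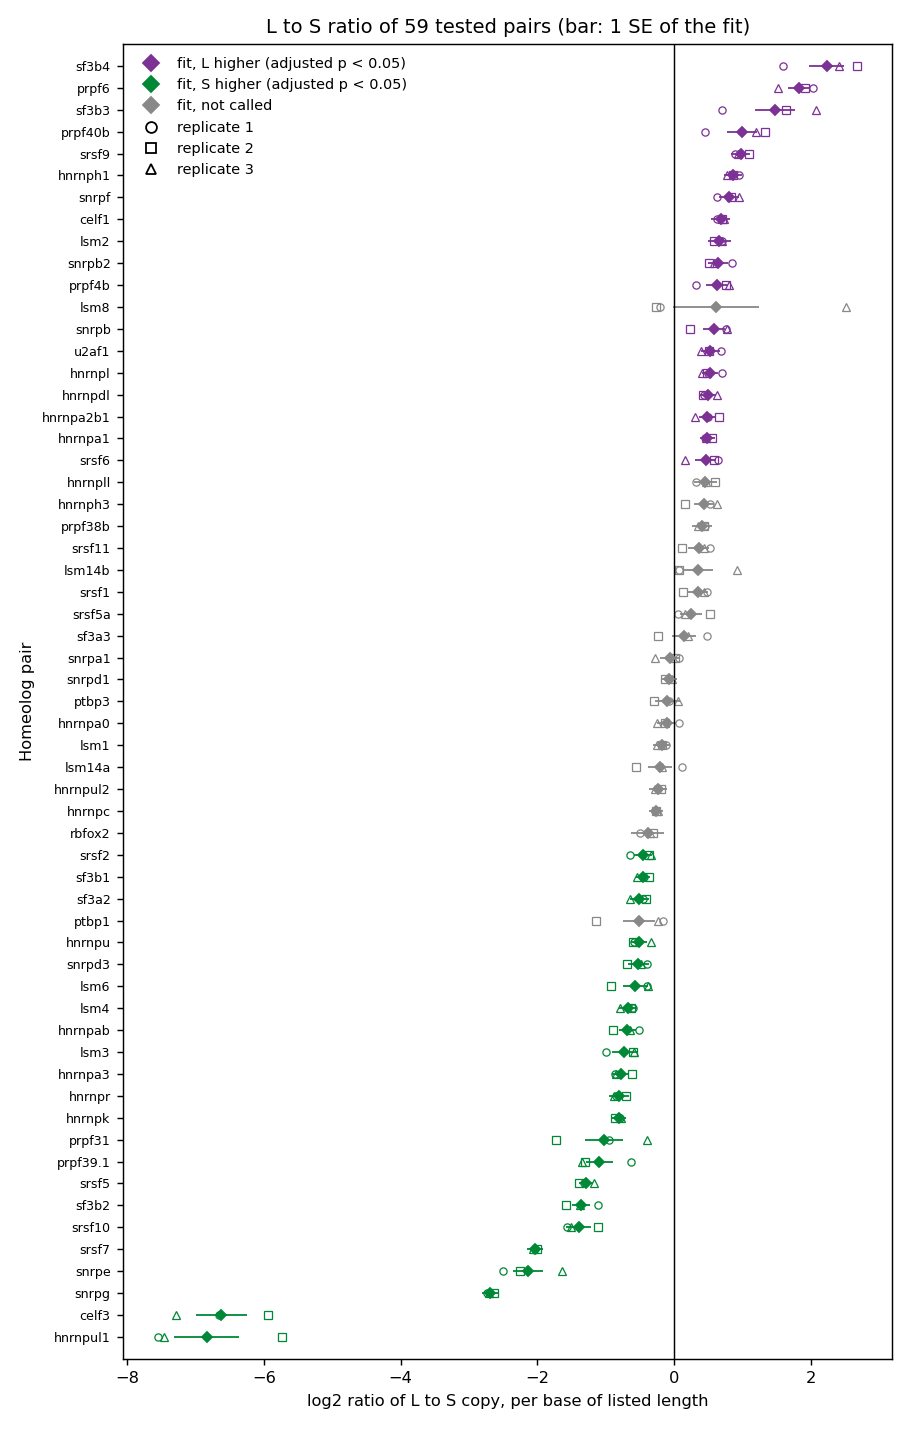
The log2 ratio of the L to the S copy, per base of listed length, for 59 of the 60 tested pairs. Diamonds give the fit with a bar of 1 SE, coloured by call, and open symbols give the 3 libraries. The pairs hnrnpul1 and celf3 lie near -7 while most pairs lie between -1 and 1, and lsm8 has 1 library far from the others.

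In hnrnpul1 and celf3 the L copy was nearly silent. For hnrnpul1, whose product resembles the nuclear scaffold protein hnRNP U, the S copy had 27.3, 23.1 and 26.5 TPM and the L copy 0.15, 0.43 and 0.15 TPM in replicates 1, 2 and 3. The fitted log2 value, L over S, was -6.84 (SE 0.478, adjusted p = 0.000544, edgeR), or 115-fold. It was -6.50, -7.50 and -6.57 without replicates 1, 2 and 3. The fit with all 3 libraries had rank 59 by absolute ratio among the 6627 pairs. For celf3, S exceeded L by 98.6-fold (log2 ratio -6.62, SE 0.373, adjusted p = 0.000473, edgeR), rank 68. In both genes S was above L in 3 of 3 libraries, and the listed lengths of L and S were close, at 2394 and 2454 bases for hnrnpul1 and 1389 bases for both copies of celf3.

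S copies were also higher for several other genes of the set. For snrpg, S had 742, 835 and 565 TPM and L 111, 134 and 86.3 TPM, a log2 ratio of -2.69 (SE 0.118, adjusted p = 0.000347, edgeR). For snrpe, S had 227, 152 and 203 TPM and L 40.1, 31.9 and 64.9 TPM, a log2 ratio of -2.13 (SE 0.218, adjusted p = 0.00116, edgeR). The SR gene srsf7, of a protein that also links splicing to mRNA export, had 153, 157 and 142 TPM for S and 37.4, 39.1 and 33.9 TPM for L, a ratio of -2.03 (SE 0.121, adjusted p = 0.000498, edgeR) that varied little between libraries. For srsf7 the listed lengths were 886 bases for L and 732 for S, and with length left out the ratio was -1.76. The ranges of the copies did not overlap in these 3 genes. Smaller differences with S higher were called for srsf10 (-1.40), sf3b2 (-1.36) and srsf5 (-1.29), and each of the 8 pairs named so far in this direction kept its call whichever library was left out.

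L copies were higher for another group. For sf3b4, which binds upstream of the branch point, L had 32.6, 39.3 and 45.5 TPM and S 10.8, 6.11 and 8.51 TPM, a log2 ratio of 2.23 (SE 0.26, adjusted p = 0.00169, edgeR). The tri-snRNP gene prpf6 had 36.2, 28.6 and 26.7 TPM for L and 8.81, 7.56 and 9.30 TPM for S, a ratio of 1.83 (SE 0.162, adjusted p = 0.000824, edgeR). Ratios of 0.97, 0.86 and 0.80 were called for srsf9, hnrnph1 and snrpf, and these 5 pairs kept their call whichever library was left out. The ratio of sf3b3, 1.47 (adjusted p = 0.00926, edgeR), lost its call without replicate 2 (adjusted p = 0.0534). That of prpf40b, 0.99 (adjusted p = 0.013, edgeR), lost it without replicate 2 (adjusted p = 0.059) and without replicate 3 (adjusted p = 0.05), and also without the library as a block (adjusted p = 0.133). That of celf1, 0.68 (adjusted p = 0.0108, edgeR), lost it without replicate 3 (adjusted p = 0.0733).

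Within complexes the favoured copy differed from gene to gene. In the Sm core S was higher for snrpg, snrpe and snrpd3, L was higher for snrpf and snrpb, and snrpd1 did not pass (-0.08, SE 0.12, adjusted p = 0.601, edgeR). In SF3A and SF3B, S was higher for sf3b2, sf3a2 and sf3b1, L for sf3b4 and sf3b3, and sf3a3 did not pass (0.15, SE 0.172, adjusted p = 0.484, edgeR), with a sign that turned without replicate 1 and under separate scaling of L and S. Of 9 SR pairs, S was higher for srsf7, srsf10, srsf5 and srsf2 and L for srsf9 and srsf6. Of these, snrpd3, sf3a2, srsf2 and srsf6 lost the call whichever library was left out, and snrpb and sf3b1 lost it without replicate 1 or without replicate 3. Over the Sm core as a whole, L copies held 39.8%, 35.4% and 42.2% of the TPM in replicates 1, 2 and 3. This share includes snrpd2.L, at 182, 124 and 133 TPM, which has no S row. It is therefore higher than the share over genes with both copies.

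The hnRNP genes had 6 of 16 pairs with S higher and 5 with L higher, all called ones except hnrnpul1 under 2-fold. Of the 5 with L higher, hnrnph1 alone kept its call without replicate 1, where hnrnpa1, hnrnpa2b1, hnrnpdl and hnrnpl lost it. The calls of hnrnpa1 and hnrnpdl were also lost without replicate 3 and that of hnrnpa2b1 without replicate 2. Of those with S higher, hnrnpu lost its call without replicate 1 and without replicate 2. The PRPF genes had 3 of 7 in each direction, among them prpf39.1 (-1.09) and prpf31 (-1.02) with S higher, and the Lsm ring 3 of 6 with S and 1 with L higher. Of these, lsm6 and lsm2 lost the call whichever library was left out, prpf31 lost it without replicate 1 (adjusted p = 0.0737) and without replicate 2 (adjusted p = 0.0712, edgeR), and prpf4b lost it without replicate 2 (adjusted p = 0.0771) and without replicate 3 (adjusted p = 0.105). The call of lsm3 was lost without replicate 1 (adjusted p = 0.0891) and without replicate 3 (adjusted p = 0.0618, edgeR). That of lsm4 was lost without replicate 3 (adjusted p = 0.066, edgeR) and when listed length, 576 bases for L and 414 for S, was left out. Of the 3 Lsm ring calls with S higher, 1 was thus left without replicate 1 and none without replicate 3. No call was made for ptbp1 (-0.51, SE 0.236, adjusted p = 0.116, edgeR), ptbp3 (-0.10) or rbfox2 (-0.39). The ratio of ptbp1 was -0.16, -1.14 and -0.24 in replicates 1, 2 and 3, so that its S copy stood out in replicate 2.

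Between libraries these rows varied less than the median row of the table. The SD of log2 CPM over the 3 libraries had a median of 0.18 over the 141 detected rows, against 0.28 over all detected rows. More than 2-fold between the highest and the lowest library was found in 8 rows (5.67%, against 21.2% of all detected rows). The flattest row was hnrnpu.S, of a nuclear scaffold protein, with 1.05-fold. The median level of these rows was above that of all detected rows, and the part of counting error in this comparison was not tested.

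The 8 rows with over 2-fold differences did not share 1 library as the highest or lowest. The widest was lsm8.S, with 1664, 2008 and 238 counts, or 22.1, 30.7 and 3.97 CPM in replicates 1, 2 and 3, a 7.73-fold range with replicate 3 lowest. Its homeolog lsm8.L, of the same listed length, had 1447, 1674 and 1361 counts. The L to S ratio of lsm8 was therefore -0.20, -0.26 and 2.52 on the log2 scale, and the fitted value of 0.61 (SE 0.625, adjusted p = 0.432, edgeR) changed sign, to -0.23, without replicate 3, and was 1.11 and 1.14 without replicates 1 and 2. By the range of its ratio between libraries, lsm8 ranked 298 among 6587 pairs with counts in both copies in each library.

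In replicate 1, prpf40b.S and sf3b3.S stood apart. The level of prpf40b.S was 46.9, 15.2 and 17.6 CPM, and prpf40b.L was also highest there, with 65.0, 38.6 and 41.0 CPM. The level of sf3b3.S was 51.8, 23.9 and 21.4 CPM in replicates 1, 2 and 3. Its L copy, with 26.4, 20.4 and 25.3 TPM, showed no such step. In replicate 2, prpf3.S was highest, with 103, 238 and 110.3 CPM, and prpf31.L and snrpb.L were lowest, with 24.0, 11.0 and 24.7 CPM and 101, 61.5 and 126 CPM. In replicate 3, celf3.S and snrpe.L were highest, with 12.1, 10.4 and 28.7 CPM and 9.76, 8.82 and 17.7 CPM. With 1 library per processing date, none of these differences between libraries could be tested.

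**Figure D5:**
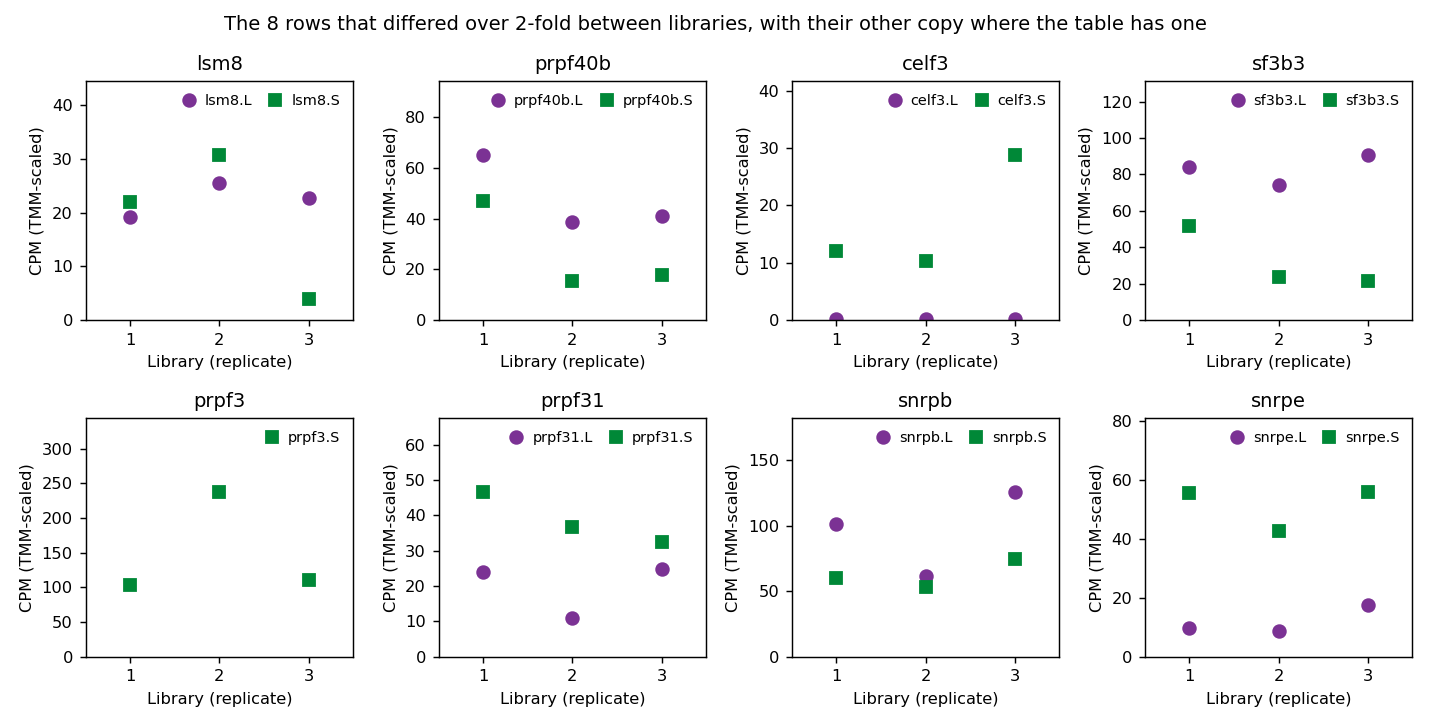
TMM-scaled CPM in each library for the 8 rows that differed over 2-fold between libraries, each with its other copy where the table has one. In lsm8 the S copy falls far below the L copy in replicate 3 alone, while in celf3 the L copy lies near 0 throughout.

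Which library was highest depended on the scaling. By TMM-scaled CPM, 49, 36 and 56 of the 141 detected rows were highest in replicates 1, 2 and 3. These are shares of 34.8%, 25.5% and 39.7%, against 35.6%, 35.8% and 28.6% of all detected rows. By deposited TPM 85 were highest in replicate 1. The share of all detected rows on that scale is not given here, so this count cannot be set against a background.

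Other genes of the splicing machinery and of further RNA-binding proteins, listed by name outside the symbol rule, are given for comparison. Of 111 such genes, 102 had at least 1 row, and 162 of their 165 rows were detected, at a median of 33.5 TPM. The exceptions were elavl3.L, elavl4.L and raly.S. The highest levels were those of sap18.L and rnps1.L, of the exon junction associated ASAP complex, at 270.4 ± 46.6 and 183 ± 48.6 TPM, of txnl4a.S, a U5 protein, at 171 ± 38.8, and of the tri-snRNP gene sart1.S at 153 ± 16.2 TPM (SD, n = 3). Of 62 pairs tested, 42 were called (67.7%, against 61.1% of all pairs), 23 with S and 19 with L higher. Few of these pairs differed widely either, with 4 of the 62 over 4-fold. Their median absolute log2 ratio was 0.79, against 0.92 over all pairs. The widest with S higher were raver1, of a PTBP1 partner (-2.83), tra2b, an SR-like activator (-1.98), and smndc1 (-1.79), and those with L higher were sap18 (3.03), rbm20 (2.56) and srrt (2.15), with adjusted p from 0.000347 to 0.00133 (edgeR).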

How the data were processed

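Counts per gene, TPM and gene lengths were taken as deposited by the authors, per the file headers. The submitters' processing notes name HISAT2 and featureCounts. The sources used here state neither their settings, nor strand, nor how reads matching several places were counted, nor the genome build, so no coordinates are printed. Of all listed lengths, 90.9% are multiples of 3. The authors' TPM equal counts per kilobase scaled to a common total, as deposited. The authors' log2 columns and their signal columns of counts per kilobase, per the file headers, were not used. Columns were matched to libraries by the dates in the titles. No reference genome or sequence table was used, so no sequences are printed. Of 146 rows, 146 matched a RefSeq symbol (assembly Xenopus_laevis_v10.1).

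CPM were computed with edgeR 4.0.16 and TMM factors of 1.07, 0.956 and 0.979. Pairs were tested with edgeR's quasi-likelihood test on counts, L and S of each library as 6 columns, with the library as a block, since both copies come from the same RNA. The offset was effective library size times listed length. Pairs needed an L plus S CPM of at least 1 in every library, and p-values were adjusted by Benjamini-Hochberg over all 6627 pairs at a threshold of 0.05. The SE is the absolute log2 ratio divided by the square root of F, an approximation. The test was also run on simulated counts in which most pairs had equal copies. The real pairs differ from that setting, and no statement here rests on that run. Ratios per library come from counts per base without a pseudocount, and the SD of log2 CPM used a pseudocount of 0.5. Alternatives used DESeq2 1.42.0 and limma 3.58.1, other scalings, filters and 2 libraries. The members, role classes, gene lists, tests and the rule for named genes were chosen with earlier results of these data known. Named are, per class, up to 4 rows of highest and 2 of lowest mean TPM, all ptbp, rbfox and celf rows, undetected rows, the rows with the widest differences between libraries, the 8 called pairs per direction that differ most, and the called Sm, SF3 and SR pairs. Other genes named were chosen after their values were seen. A gene that the rule would name is not reported here by name and is left out of the plot of pair ratios, while all counts include it.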

Additional observations from a re-analysis of the deposited data

How the results depend on the processing

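The 18 pairs with L and 23 with S higher became 8 to 12 and 15 to 17 when 1 library was left out, where each fit has a single residual degree of freedom. Over all pairs, 2283 with L and 1766 with S higher became 1848 to 2017 and 1351 to 1552. Without the replicate block the calls of this set were 15 and 21, with DESeq2 21 and 23, and with limma-voom 20 and 23. Those of all pairs were, in the same order, 2114 and 1642, 2436 and 1892, and 2373 and 1841. Scaling the L and S columns separately moved the median fitted log2 ratio of all pairs from 0.15 to -0.003. The calls of all pairs were then 2030 with L and 2046 with S higher. Such scaling itself sets the typical ratio of L to S near 0. It therefore cannot decide whether L exceeds S among all pairs. The calls of this set moved to 13 and 24, losing hnrnpa1, hnrnpa2b1, snrpb, srsf6 and u2af1. No called pair changed sign, while the uncalled sf3a3, lsm8 and snrpa1 did under a left-out library. In the 8 alternatives with 3 libraries, 31 of the 41 calls were kept in each. Of the detected rows of this set, 49 were highest in replicate 1 by TMM-scaled CPM and 85 by deposited TPM, which are not TMM-scaled. For the latter count no background share is given. Detected rows numbered 146 at a CPM of 0.1, 141 at a CPM of 1 and 143 without replicate 3. The 3 paralog ratios kept their direction under every alternative run, with celf1 to celf2 between 4.10 and 5.66. Few counts in a copy limit the precision of some ratios, among them those of hnrnpul1, celf3 and rbm20 and that of celf1 to celf2.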
